A study of Mus musculus with 6 samples.

Results

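The genes described here build the N-linked glycan and attach it to proteins. They comprise 41 genes of the 26898 in the table, chosen by name for dolichol phosphate supply, sugar nucleotide supply, assembly of the dolichol-linked glycan, transfer by the oligosaccharyltransferase, and early trimming and branching. All 41 were found, and all 41 passed the filter on low expression (a mean of 1 TPM or more in WT or in KO), which left 14799 genes for testing. TPM divides the reads of a gene by its exon length and scales each sample to the same total, so that levels can be compared between genes. RNA was sequenced from primary mouse embryonic fibroblasts (MEFs, connective tissue cells cultured directly from embryos) of C57BL/6 background at passage 3. The WT group was Kansl1 fl/fl and the KO group was Kansl1 fl/fl/CAG-cre, that is, the same floxed alleles with a Cre recombinase that the broadly active CAG promoter drives and tamoxifen induces. Tamoxifen (1 μM, for 48 h) was given to WT and KO cells alike, and the labels give 10% fetal bovine serum for both. Each group had 3 samples (WT 4, 5 and 8; KO 3, 7 and 10), each counted by the study as a separate mouse. No Cre-positive cells with an intact Kansl1 gene were analysed here, so loss of Kansl1 and presence of Cre cannot be told apart.

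N-glycosylation begins on dolichol phosphate, a long lipid carrier in the membrane of the endoplasmic reticulum (ER). Sugars are added first on the cytosolic face, from nucleotide sugars, and then on the luminal face, from dolichol-linked sugars, with mannoses before the closing run of glucoses. The oligosaccharyltransferase (OST) moves the finished glycan onto asparagine residues of new proteins, after which glucosidases and mannosidases trim it and Golgi transferases extend it. Fibroblasts secrete large amounts of matrix glycoprotein.

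The libraries were checked first. Reads recovered from the TPM values amounted to 22812595 to 24263082 per WT sample and 17655495 to 27718259 per KO sample. Kansl1, the targeted gene, was at 28.5 (WT 4), 26.7 (WT 5) and 24.4 TPM (WT 8) against 13.7 (KO 3), 15.8 (KO 7) and 14.4 TPM (KO 10), a KO mean of 55.1% of WT. These values cover all exons and not the floxed part alone. All 12 fibroblast markers were expressed, their sum ranged from 7393 to 11427 TPM in WT and from 8399 to 11063 TPM in KO samples, and 0 of them were called changed by limma or by voom (limma's model for read counts) on recovered reads, with an unadjusted limma p-value under 0.05 for 2. The sum of 10 macrophage markers was 40.0 to 48.9 TPM in WT and 87.7 to 176 TPM in KO samples, with 1 of 8 tested markers (Lyz2) called higher and 2 (Ptprc and Itgam) under 1 TPM in every sample. Its part in the results below was not tested. In bulk RNA, more cells of a type and more RNA per cell cannot be told apart, nor can fewer cells and less RNA per cell. KO 7 differed from the other 5 samples in sex-linked RNA, with Xist at 117 TPM against at most 0.0230 TPM and Ddx3y at 0 TPM against 49.6 to 63.2 TPM. The most abundant RNA, annotated as a microRNA gene, took 15.5% to 25.6% of TPM and was highest in KO 3 and, among WT samples, in WT 8. KO 3 was also the lowest KO sample for 37 of the 41 genes, and WT 8 the lowest WT sample for 32.

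The question was which steps of the pathway changed with loss of Kansl1. Of the genes that supply and assemble the precursor, 9 of 23 fell in KO MEFs. Among them were the genes of all 3 glucosyltransferases that close the glycan and of both subunits of the Alg13/Alg14 transferase. Of the genes of transfer and trimming, 1 of 18 fell, the OST subunit Ddost. Genes were called when the limma adjusted p-value was under 0.005 and KO and WT differed by more than 0.5 on the log2 scale. These are the study's thresholds, which it applied to results of another program, DESeq2. At these thresholds, 10 of 41 genes were lower and 0 were higher, while 9.03% of all tested genes were lower and 1.64% higher. The 10 genes were Dhdds, Dolpp1, Pmm2, Alg13, Alg14, Alg12, Alg6, Alg8, Alg10b and Ddost. Only Dhdds, Dolpp1 and Alg10b were called whichever sample was left out, while Alg14 and Ddost were called in none of those fits. With an adjusted p-value under 0.05 in its place, 11 were lower, Dolk being the addition, and 0 were higher, against 16.6% and 4.69% of all tested genes. Before adjustment, limma gave 17 genes with a p-value under 0.05 and a lower KO level and 3 with a higher one (Srd5a3, Pmm1 and Man1a), against 27.2% and 12.2% of all tested genes. The median log2 fold change was -0.14 over the 41 genes, -0.44 over the 23 of precursor supply and assembly and -0.02 over the 18 of transfer and trimming, against -0.07 over all tested genes. Whether these 2 sets of genes differ was not tested.

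**Figure D1:**
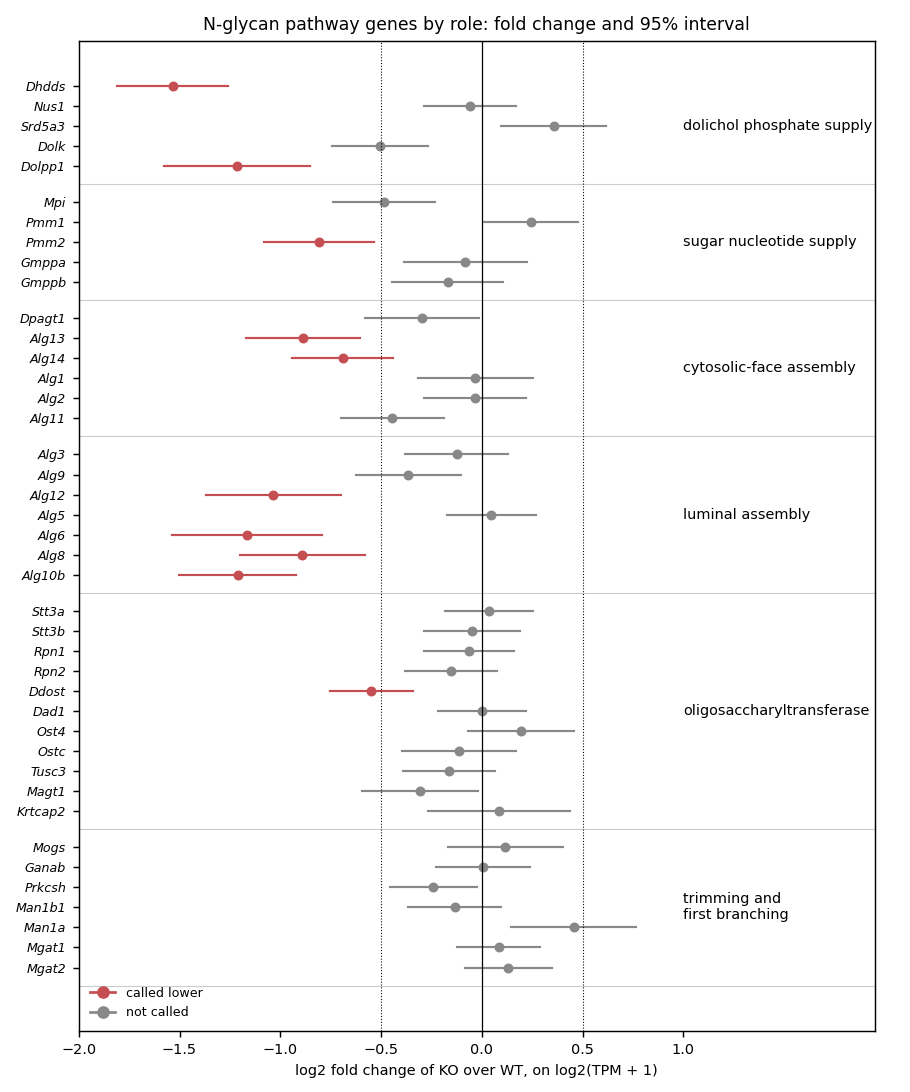
Log2 fold change of KO over WT on the log2(TPM + 1) scale (horizontal axis) for each of the 41 genes, grouped by role; points are limma estimates, bars their 95% intervals, red marks genes called lower and dotted lines mark -0.5 and 0.5. Red points lie mostly in the 4 upper groups, where 9 of 23 genes were called, and only Ddost is red among the 18 genes of the lower 2 groups.

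The share of genes called differed with expression level. Of tested genes with a WT mean of at least 100 TPM, 1.09% were lower, against 11.2% between 10 and 100 TPM and 9.13% between 1 and 10 TPM. Of the 41 genes, 9 had a WT mean of at least 100 TPM, and Ddost alone of these was lower. Between 10 and 100 TPM, 7 of 29 were lower, and below 10 TPM, 2 of 3. The 8 genes at or above 100 TPM that were not called all belonged to transfer and trimming.

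**Figure D2:**
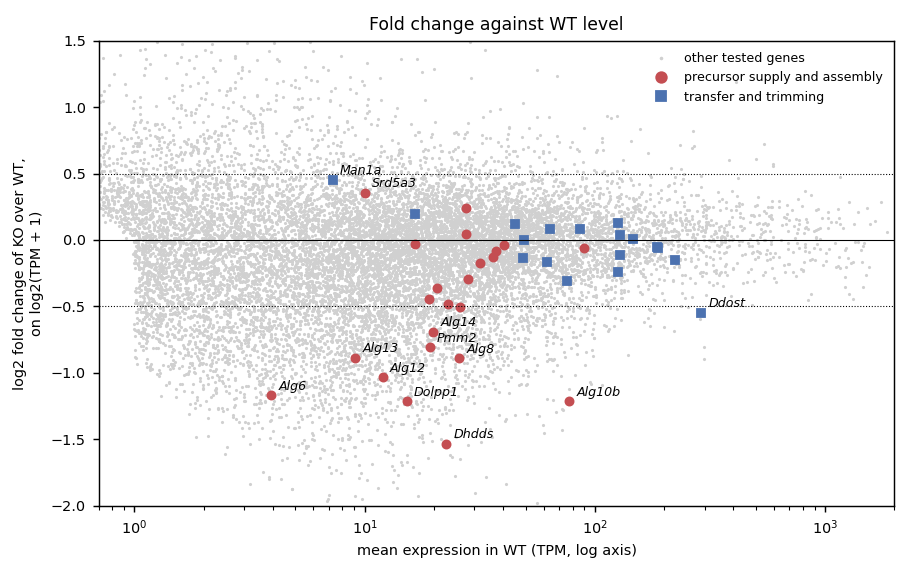
Log2 fold change of KO over WT on the log2(TPM + 1) scale (vertical axis) against mean WT expression in TPM (horizontal log axis); grey points are other tested genes, red circles the 23 genes of precursor supply and assembly, blue squares the 18 genes of transfer and trimming, and 465 tested genes lie outside the axes. The blue squares have a median WT mean of 105.9 TPM and the red circles of 23.0 TPM, with Ddost at a WT mean of 289 TPM the highest of all 41.

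Promoter sequence is shown for the 6 genes with the largest falls on the log2(TPM + 1) scale (with voom on recovered reads, Alg13 would take the place of Alg8), as the stretch just before the annotated start, to make visible what these promoters hold. RefSeq (GRCm38.p6) had a promoter window for 35 of the 41 genes, among them all 10 called lower, reaching from 250 bases before to 50 bases after the start. Windows were searched on both strands for the ETS motif CCGGAA, the palindromic NRF1 motif, the YY1 motif AAGATGGCG, the ER stress element (a CCAAT box and CCACG with 9 free bases between), the TATA box TATAAA, the CCAAT box and the E-box CACGTG. Capitals below mark every match in the printed stretch.
Dhdds, chr4:134000919-134001132, minus strand: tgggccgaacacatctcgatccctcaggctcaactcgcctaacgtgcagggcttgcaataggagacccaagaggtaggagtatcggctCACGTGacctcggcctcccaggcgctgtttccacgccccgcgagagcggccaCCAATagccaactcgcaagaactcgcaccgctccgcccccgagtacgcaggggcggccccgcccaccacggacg
Dolpp1, chr2:30392004-30392253, plus strand: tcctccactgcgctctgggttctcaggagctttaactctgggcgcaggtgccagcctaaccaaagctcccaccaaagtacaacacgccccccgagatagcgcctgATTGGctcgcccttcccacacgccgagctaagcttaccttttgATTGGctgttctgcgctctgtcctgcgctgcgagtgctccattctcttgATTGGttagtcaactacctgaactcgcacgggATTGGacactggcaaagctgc
Alg10b, chr15:90224061-90224310, plus strand: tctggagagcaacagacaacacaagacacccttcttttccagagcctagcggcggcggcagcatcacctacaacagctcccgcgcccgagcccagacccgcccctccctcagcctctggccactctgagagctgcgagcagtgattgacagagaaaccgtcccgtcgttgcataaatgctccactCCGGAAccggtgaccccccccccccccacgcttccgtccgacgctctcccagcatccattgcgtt
Alg6, chr4:99715380-99715629, plus strand: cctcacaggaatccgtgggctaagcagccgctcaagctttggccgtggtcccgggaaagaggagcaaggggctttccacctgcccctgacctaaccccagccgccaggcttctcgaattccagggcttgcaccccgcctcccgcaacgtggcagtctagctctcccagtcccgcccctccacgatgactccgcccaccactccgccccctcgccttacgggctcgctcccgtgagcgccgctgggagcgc
Alg12, chr15:88819319-88819568, minus strand: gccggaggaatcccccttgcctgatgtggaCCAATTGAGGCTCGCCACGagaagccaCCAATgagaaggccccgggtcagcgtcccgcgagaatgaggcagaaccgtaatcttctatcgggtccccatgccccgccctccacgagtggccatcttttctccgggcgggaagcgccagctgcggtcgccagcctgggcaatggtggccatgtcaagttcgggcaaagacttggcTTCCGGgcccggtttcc
Alg8, chr7:97371367-97371605, plus strand: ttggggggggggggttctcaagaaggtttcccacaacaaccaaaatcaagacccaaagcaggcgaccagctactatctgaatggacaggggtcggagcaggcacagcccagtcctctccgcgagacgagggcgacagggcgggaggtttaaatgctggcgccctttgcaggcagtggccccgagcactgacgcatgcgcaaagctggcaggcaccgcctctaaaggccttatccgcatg

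The Alg6 and Alg8 stretches held no match, and the ETS match of the Alg8 window lay after the printed stretch. The Dolpp1 stretch held the CCAAT box 4 times, each on the opposite strand as ATTGG. The Alg12 stretch held the ER stress element, which was in the windows of 1 of the 10 lower genes and 0 of the 25 genes not called. Of the 9565 tested genes with a window, 0.167% held it. A match in 1 gene allows no conclusion about the lower genes. The CCAAT box was in 6 of the 10 windows of lower genes and 14 of 25 windows of the others, against 43.3% of tested genes. The ETS motif was in 5 of 10 and 10 of 25, against 32.3%. The E-box was in 1 of 10 (Dhdds) and 5 of 25, against 11.9%, and the TATA box in 1 of 10 (Alg13) and 1 of 25, against 8.48%. The NRF1 motif was in 1 of 10 (Pmm2) and 0 of 25, against 2.35%, and the YY1 motif in 0 of 10 and 2 of 25, against 3.66%. Of all RefSeq windows, 0.119% held the ER stress element, 37.4% the CCAAT box, 14.9% the ETS motif, 7.15% the E-box, 13.6% the TATA box, 0.971% the NRF1 motif and 1.4% the YY1 motif. These are matches of letters and not measured binding.

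Dolichol phosphate supply was examined first. Dhdds (ENSMUSG00000012117.13, chromosome 4 from 133969028 to 134000918, minus strand, mm10) encodes the catalytic subunit of the prenyltransferase that makes the dolichol chain. Its level was 21.2, 25.4 and 21.2 TPM in the WT samples and 6.50, 7.91 and 7.04 TPM in the KO samples, in the order given above. The KO samples lay far below the WT samples, at 31.6% of the WT mean. KO minus WT was -1.53 on the log2 scale (SE 0.12, adjusted p = 0.000151 by limma). This was the largest fall of the 41 genes with a pseudocount of 1, whereas with voom on recovered reads Alg6 fell more (-1.59 against -1.55). Nus1, which encodes the partner subunit of the same enzyme, was at 89.6 ± 8.22 TPM (SD, n = 3) in WT and 85.8 ± 4.16 TPM (SD, n = 3) in KO MEFs. Its groups overlapped, and its log2 fold change was -0.06 (95% interval -0.29 to 0.17). In WT MEFs the level of Nus1 thus exceeded that of Dhdds.

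Dolpp1 (ENSMUSG00000026856.14, chromosome 2 from 30392254 to 30400529, plus strand) encodes the phosphatase that recycles dolichol pyrophosphate after the glycan has been transferred. It was at 14.8, 16.8 and 14.2 TPM in the WT samples and at 4.55, 7.47 and 6.27 TPM in the KO samples, without overlap. KO minus WT was -1.21 on the log2 scale (SE 0.16, adjusted p = 0.000852 by limma). Dolk, the kinase that phosphorylates dolichol, lies on the same chromosome from 30284231 to 30286334. Its WT values of 25.2, 26.8 and 25.8 TPM all exceeded its KO values of 16.7, 19.8 and 17.5 TPM. The log2 fold change of Dolk was -0.51 (SE 0.11), and its adjusted p of 0.00700 from limma missed the threshold of 0.005, whereas it was 0.00193 when the tested genes were limited to a mean over all 6 samples of at least 10 TPM. Srd5a3, which acts in the conversion of polyprenol to dolichol, was at 9.96, 10.8 and 9.32 TPM in the WT samples and at 12.0, 14.3 and 13.1 TPM in the KO samples. All KO values lay above the WT values, but the difference of 0.36 on the log2 scale was not called (adjusted p = 0.0469, limma).

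Next came the genes that supply mannose as GDP-mannose. Pmm2 (ENSMUSG00000022711.16, chromosome 16 from 8637674 to 8662467, plus strand) encodes the phosphomannomutase that turns mannose-6-phosphate into mannose-1-phosphate. It was at 20.99, 19.2 and 17.3 TPM in the WT samples and at 9.47, 11.6 and 10.5 TPM in the KO samples, or 55.0% of WT. KO minus WT was -0.81 on the log2 scale (SE 0.12, adjusted p = 0.00147 by limma). Exons of Pmm2 overlap the opposite-strand gene Tmem186 over 39 bases. Its paralog Pmm1 was at 29.7, 28.4 and 25.0 TPM in the WT samples and at 33.5, 33.5 and 31.6 TPM in the KO samples. All Pmm1 values were higher in KO samples, but its adjusted p of 0.114 from limma did not pass. The ratio of Pmm1 to Pmm2 was 1.45 ± 0.0351 (SD, n = 3) in WT and 3.14 ± 0.346 (SD, n = 3) in KO MEFs, so the level of Pmm1 exceeded that of Pmm2 more in KO samples. The exact permutation test (two-sided) gave p = 0.1, the smallest that 3 against 3 samples allow, and 0.4 adjusted over 4 ratios of related genes.

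Mpi, which makes mannose-6-phosphate from fructose-6-phosphate, was at 23.2, 24.1 and 21.7 TPM in the WT samples and at 14.6, 18.0 and 15.9 TPM in the KO samples. The groups did not overlap, but its log2 fold change of -0.49 was not called (adjusted p = 0.0113, limma). Gmppb, the enzyme that forms GDP-mannose, was at 29.9, 33.8 and 31.0 TPM in the WT samples and at 23.7, 29.5 and 31.1 TPM in the KO samples. Its regulatory relative Gmppa was at 32.5, 41.7 and 37.5 TPM in the WT samples and at 29.5, 39.4 and 36.7 TPM in the KO samples. Both overlapped between groups, with log2 fold changes of -0.17 for Gmppb and -0.08 for Gmppa. Of the exon length of Gmppb, 33.6% overlaps the opposite-strand gene Rnf123. The library kit named by the study does not mark strand, so reads of overlapping genes cannot be told apart. The ratio of Gmppa to Gmppb was 1.18 ± 0.0778 (SD, n = 3) in WT and 1.25 ± 0.0792 (SD, n = 3) in KO MEFs (exact permutation test, two-sided, p = 0.4, adjusted p = 0.4).

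On the cytosolic face of the ER, 2 of 6 genes were lower, against 9.03% of all tested genes. They were Alg13 and Alg14, whose proteins together form the transferase that adds the second N-acetylglucosamine. Alg13 (ENSMUSG00000041718.15, chromosome X from 144317804 to 144374450, plus strand) encodes the catalytic subunit and was at 9.71, 9.66 and 7.96 TPM in the WT samples and at 4.58, 4.34 and 4.43 TPM in the KO samples. All 3 KO values were close to one another and below every WT value. KO minus WT was -0.89 on the log2 scale (SE 0.13, adjusted p = 0.00115 by limma). Alg14 (ENSMUSG00000039887.11, chromosome 3 from 121291773 to 121363094, plus strand) encodes the membrane anchor and was at 22.1, 18.9 and 18.6 TPM in the WT samples and at 11.8, 12.5 and 11.5 TPM in the KO samples. It fell to 59.9% of WT, a difference of -0.69 on the log2 scale (SE 0.11, adjusted p = 0.00204, limma). Both subunits of this transferase were thus called with all 6 samples, whereas of the subunits of the prenyltransferase Dhdds was and Nus1 was not. The call of Alg14 was lost whichever sample was left out, and that of Alg13 in 3 of 6 such fits. Alg13 is X-linked, and KO 7, the sample with Xist RNA, had the lowest value of the 3 KO samples.

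Dpagt1 starts the glycan by adding the first N-acetylglucosamine phosphate. It was at 31.8, 26.9 and 25.7 TPM in the WT samples and at 19.8, 25.2 and 23.3 TPM in the KO samples. The KO values lay just below the WT values, and the log2 fold change of -0.30 came with an adjusted p of 0.112 from limma. The mannosyltransferases that follow were Alg1, Alg2 and Alg11. Alg1 and Alg2 had log2 fold changes of -0.03 and -0.03, with 95% intervals from -0.32 to 0.26 and from -0.29 to 0.22, and their groups overlapped. Of the exon length of Alg1, 17.6% overlaps the opposite-strand gene Eef2kmt. Alg11 was at 20.3, 18.6 and 18.2 TPM in the WT samples and at 12.6, 15.4 and 13.3 TPM in the KO samples. Its groups did not overlap, but its log2 fold change of -0.44 was not called (adjusted p = 0.0176, limma).

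The luminal assembly group held 7 genes, among them Alg5, which supplies a donor sugar and adds none to the glycan. Of the 7, 4 were lower, against 9.03% of all tested genes and 11.2% of those with a WT mean between 10 and 100 TPM. Of these 4, 3 were the glucosyltransferases that close the glycan. Alg6 (ENSMUSG00000073792.11, chromosome 4 from 99715664 to 99763460, plus strand) adds the first glucose. It had the lowest WT mean of the 41 genes, at 4.09, 4.12 and 3.58 TPM in the WT samples and 0.917, 1.45 and 1.25 TPM in the KO samples. These values rest on 283 recovered reads in WT 4 and 57 in KO 3. The mean fell to 30.6% of WT, and the log2 fold change of -1.17 (SE 0.17) on the log2(TPM + 1) scale, which understates changes of low genes, came with an adjusted p of 0.00114 from limma. Alg8 (ENSMUSG00000035704.17, chromosome 7 from 97371606 to 97392185, plus strand) adds the second glucose. It was at 28.2, 25.9 and 23.3 TPM in the WT samples and at 11.01, 15.2 and 14.4 TPM in the KO samples, again without overlap. KO minus WT was -0.89 on the log2 scale (SE 0.14, adjusted p = 0.00167 by limma).

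Alg10b (ENSMUSG00000075470.2, chromosome 15 from 90224311 to 90233471, plus strand) adds the terminal glucose, which the OST recognises. It was at 88.5, 76.4 and 66.9 TPM in the WT samples and at 28.9, 36.3 and 33.0 TPM in the KO samples. It fell to 42.3% of WT, a difference of -1.21 on the log2 scale (SE 0.13, adjusted p = 0.000362, limma). All 3 glucosyltransferases that close the glycan were thus lower, although their WT levels ranged from 3.93 to 77.3 TPM. Alg5, which makes the dolichol-linked glucose that they use, was at 27.6 ± 0.890 TPM (SD, n = 3) in WT and 28.6 ± 1.79 TPM (SD, n = 3) in KO MEFs, with a log2 fold change of 0.05 (95% interval -0.17 to 0.27).

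Of the luminal mannosyltransferases, Alg12 (ENSMUSG00000035845.17, chromosome 15 from 88805244 to 88819318, minus strand) was lower. It was at 13.4, 12.5 and 10.2 TPM in the WT samples and at 4.38, 5.96 and 5.75 TPM in the KO samples, without overlap. The difference was -1.03 on the log2 scale (SE 0.15, adjusted p = 0.00123 by limma). The start of Alg12 lies 328 bases from that of Creld2, an ER protein gene on the other strand, and the printed stretch with the ER stress element lies between them. Creld2 fell as well, from a WT mean of 98.9 ± 3.69 TPM (SD, n = 3) to a KO mean of 64.1 ± 7.07 TPM (SD, n = 3), a difference of -0.62 on the log2 scale (adjusted p = 0.00247, limma). Any role of the element in either gene was not tested. Alg9, which acts on either side of Alg12 in the chain, was at 21.6, 21.5 and 18.7 TPM in the WT samples and at 14.6, 17.6 and 15.2 TPM in the KO samples. The groups did not overlap, but the adjusted p of 0.0432 from limma did not pass, and 12.9% of its exon length overlaps an opposite-strand gene. Alg3, which adds the first luminal mannose, had a log2 fold change of -0.13 with overlapping groups.

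Of the 41 genes, 13 had a protein-coding gene starting on the other strand within 1000 bases, and 10 of these had a partner among the tested genes. Nup188, 63 bases from Dolk, had a log2 fold change of -0.03. Tmem186, 38 bases from Pmm2, had one of -0.42 with an adjusted p of 0.0428 from limma. Abhd4, 84 bases from the OST gene Dad1, rose from a WT mean of 38.7 ± 2.26 TPM (SD, n = 3) to a KO mean of 77.7 ± 4.32 TPM (SD, n = 3), whereas Dad1 had a log2 fold change of 0.0013. Rpl36al, 74 bases from Mgat2, had a log2 fold change of 0.74 (adjusted p = 0.0195, limma) at a WT mean of 1.87 TPM. For 1110032A03Rik, 501 bases from Alg9, it was -0.61 (adjusted p = 0.0376, limma) at a WT mean of 2.01 TPM. Creld2 and Abhd4 were the only ones called changed among the tested partners of these 10 genes, against 10.7% of all tested genes.

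**Figure D3:**
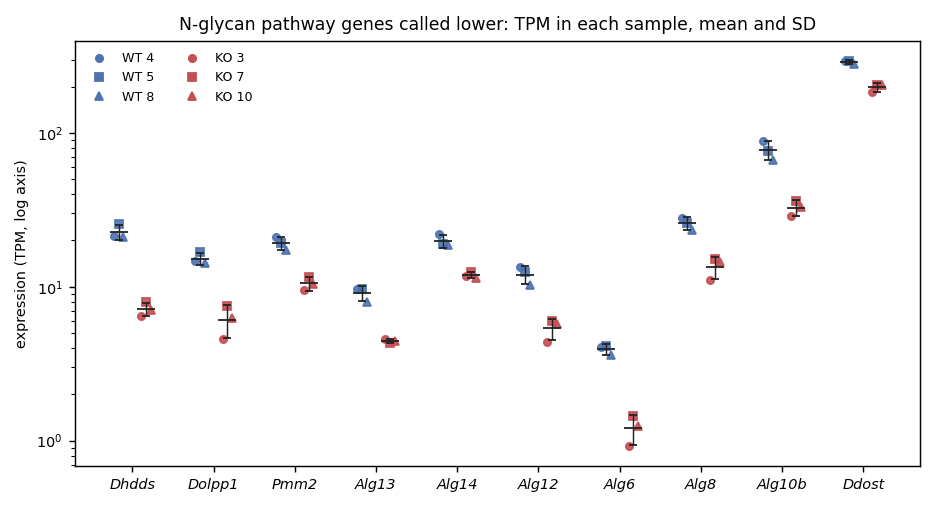
Expression in TPM (vertical log axis) of the 10 genes called lower, ordered by role, in each WT (blue) and KO (red) sample; horizontal ticks and bars give the mean and SD of 3 samples. For each gene the 3 KO samples lie below the 3 WT samples, from Alg6 with a WT mean of 3.93 TPM to Ddost with 289 TPM.

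The OST was compared over the 11 subunit genes of the list, and 1 of 11 was lower, a share near the 9.03% of all tested genes. Ddost (ENSMUSG00000028757.4, chromosome 4 from 138304730 to 138312628, plus strand) encodes a noncatalytic subunit that both forms of the complex share. It was at 293, 295 and 279 TPM in the WT samples and at 184, 206 and 204 TPM in the KO samples, or 68.4% of WT. The difference was -0.55 on the log2 scale (SE 0.09, adjusted p = 0.00240 by limma). In WT MEFs the level of Ddost was the highest of the 11 subunits, and in KO MEFs its mean of 198 TPM lay just below the 201 TPM of Rpn2. The size of its fall was close to the threshold: it was -0.44 with median-of-ratios scaling and -0.45 with voom on recovered reads, where it was not called. Without a variance trend its adjusted p was 0.0082 (limma).

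The catalytic subunits are Stt3a, which acts mainly on proteins during translocation, and Stt3b, which also acts afterwards. Stt3a was at 131, 134 and 120 TPM in the WT samples and at 122, 138 and 134 TPM in the KO samples. Stt3b was at 206, 184 and 167 TPM in the WT samples and at 168, 190 and 179 TPM in the KO samples. Both genes overlapped between groups, with log2 fold changes of 0.04 (95% interval -0.18 to 0.25) and -0.05 (95% interval -0.29 to 0.19), so a change as large as that of Ddost lay outside both intervals. Their ratio was 0.694 ± 0.0497 (SD, n = 3) in WT and 0.735 ± 0.0121 (SD, n = 3) in KO MEFs (exact permutation test, two-sided, p = 0.3, adjusted p = 0.4).

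The oxidoreductases Tusc3 and Magt1 are alternative subunits of the Stt3b form. Tusc3 was at 62.0, 64.2 and 60.0 TPM in the WT samples and at 49.8, 59.9 and 56.6 TPM in the KO samples. Magt1, which is X-linked, was at 86.2, 74.8 and 66.6 TPM in the WT samples and at 52.9, 66.4 and 63.7 TPM in the KO samples. In both genes the highest KO value, that of KO 7, lay just under the lowest WT value, and the adjusted p of 0.264 and 0.103 from limma did not pass. The ratio of Tusc3 to Magt1 was 0.826 ± 0.0948 (SD, n = 3) in WT and 0.910 ± 0.0276 (SD, n = 3) in KO MEFs (exact permutation test, two-sided, p = 0.2, adjusted p = 0.4).

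The other listed subunits were Rpn1, Rpn2, Dad1, Ost4, Ostc and Krtcap2, of which Ostc and Krtcap2 belong to the Stt3a form. Their log2 fold changes lay between -0.15 (Rpn2) and 0.20 (Ost4), and the groups overlapped for each. Tmem258, grouped here with the other pathway genes and not in the sum below, had a log2 fold change of -0.12 and was not called. Dad1 was nearly the same in both groups, at 49.2 ± 3.41 TPM (SD, n = 3) in WT and 49.2 ± 1.77 TPM (SD, n = 3) in KO MEFs. Of the exon length of Ost4, 53.2% overlaps the opposite-strand gene Agbl5, and of that of Krtcap2, 15.7% overlaps Trim46. The summed level of the 11 subunits was 1433 ± 67.1 TPM (SD, n = 3) in WT and 1284 ± 109 TPM (SD, n = 3) in KO MEFs, which is 89.6% of the WT sum. The sum of the 7 genes of the luminal assembly group, Alg5 included, was 64.0% of WT by the same measure. Alg10b made up much of it, at 77.3 of 203 TPM in WT and 32.7 of 130 TPM in KO MEFs. The sums of the other groups were 79.7% of WT for dolichol phosphate supply and 88.6% for sugar nucleotide supply. They were 81.5% for cytosolic-face assembly and 100.03% for trimming and first branching.

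**Figure D4:**
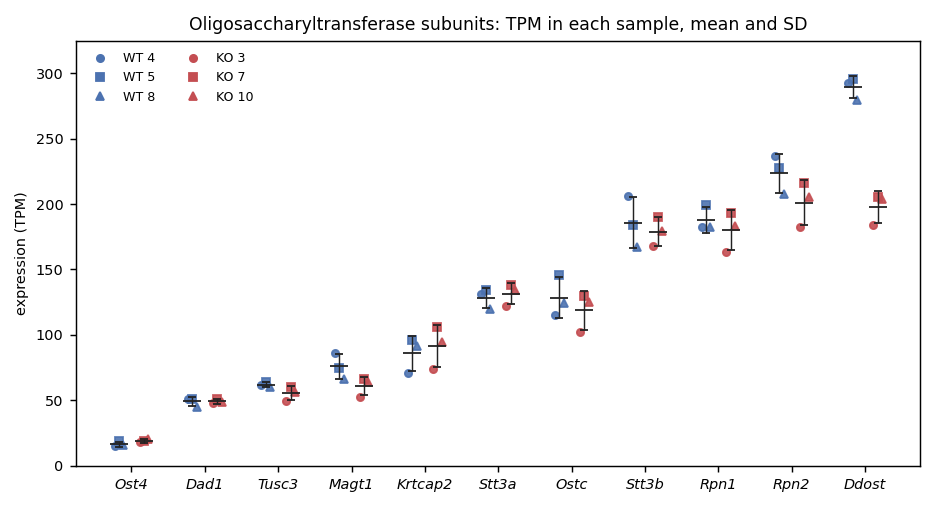
Expression in TPM (vertical axis, from 0) of the 11 OST subunit genes, ordered by WT mean, in each WT (blue) and KO (red) sample; horizontal ticks and bars give the mean and SD of 3 samples. Ddost stands apart, with KO samples at 184 to 206 TPM below WT samples at 279 to 295 TPM, while the catalytic Stt3a and Stt3b overlap between groups.

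Trimming and first branching held 0 called genes among 7, against 9.03% of all tested genes lower and 1.64% higher. With voom on recovered reads, 1 was called higher, against 12.2% of all tested genes lower and 4.34% higher. By limma, 2 of the 7 had an unadjusted p-value under 0.05, namely Prkcsh (lower) and Man1a (higher). Of all tested genes, 27.2% were lower and 12.2% higher at that p-value. Mogs, which removes the outermost glucose, and Ganab, the catalytic subunit of the glucosidase that removes the others, had log2 fold changes of 0.12 and 0.01 with overlapping groups. Prkcsh, the regulatory subunit of that glucosidase, was at 124, 130 and 123 TPM in the WT samples and at 97.9, 115 and 107 TPM in the KO samples. Its KO values were all lower, and its log2 fold change of -0.24 came with an adjusted p of 0.0929 from limma. Man1b1, an ER mannosidase, and the branching transferases Mgat1 and Mgat2 had log2 fold changes of -0.14, 0.08 and 0.13.

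Man1a, a Golgi mannosidase, had the largest positive change of the 41 genes. It was at 8.35, 6.76 and 6.72 TPM in the WT samples and at 8.95, 10.6 and 11.6 TPM in the KO samples. The groups did not overlap, and the log2 fold change of 0.45 (SE 0.14) was not called (adjusted p = 0.0347, limma). It was called higher with median-of-ratios scaling (0.55, limma adjusted p-value 0.00423) and with voom on recovered reads (0.62, limma adjusted p-value 0.000827). With median-of-ratios scaling, 9 of the 41 genes were lower and 1 was higher, against 9.74% and 3.2% of all tested genes, and with voom 9 and 1, against 12.2% and 4.34%. The median over every gene tested shifted by 0.0958 and 0.102 on the log2 scale under these scalings.

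Over all 41 genes, the KO samples lay entirely below the WT samples for 18 and entirely above for 3 (Srd5a3, Pmm1 and Man1a). Among all tested genes, 29.9% lay entirely below and 13.3% entirely above. The 8 genes that lay below without being called were Dolk, Mpi, Dpagt1, Alg11, Alg9, Tusc3, Magt1 and Prkcsh. Of the 18 genes, 14 belonged to precursor supply and assembly.

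The calls of single genes depended on the number of samples and on the filter. Without the filter, when all 26898 genes were tested, Dhdds and Alg10b remained called (limma adjusted p-values 0.00290 and 0.00429), and the other 8 genes missed the threshold with adjusted p-values from 0.00792 for Alg13 to 0.0103 for Alg8, while 1.06% of all genes were called lower and 0.204% higher. The number of the 41 genes called lower was 6 without WT 4, 3 without WT 5, 8 without WT 8, 7 without KO 3, 7 without KO 7 and 4 without KO 10, and over all tested genes it dropped from 1337 to between 527 and 778. Dhdds, Dolpp1 and Alg10b were called whichever sample was left out. Alg12 missed the threshold without WT 5 (limma adjusted p-value 0.00528). Alg6 missed it without WT 5 (0.00549) and without KO 10 (0.00501). Alg8 missed it without WT 4 (0.00614), WT 5 (0.00638) and KO 10 (0.00609). Alg13 missed it without WT 5 (0.00691), KO 7 (0.00561) and KO 10 (0.00699). Pmm2 missed it without WT 4 (0.00547), WT 5 (0.00692), KO 3 (0.00633) and KO 10 (0.00840). Alg14 and Ddost missed it whichever sample was left out, with limma adjusted p-values from 0.00575 without WT 8 to 0.0143 without KO 10 for Alg14 and from 0.00591 without WT 4 to 0.0146 without WT 5 for Ddost. Among the 10 genes, the log2 fold change moved most for Dolpp1, between -1.35 and -1.05 over the samples left out, and least for Ddost, between -0.58 and -0.50.

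The rest of the N-glycan pathway was then compared, as 66 further genes in 5 lists, of which 63 were tested. Of these, 10 were lower and 1 was higher, or 15.9% lower against 9.03% of all tested genes, and their median log2 fold change was -0.12. Limited to a mean over all 6 samples of at least 10 TPM, 5 of 50 were lower, against 941 of 7747 tested genes, which is no higher share. Among 13 tested genes for amino sugar and UDP-sugar supply, Slc35a3, a Golgi transporter of UDP-N-acetylglucosamine, was lower, with 45.9% of its WT level and an adjusted p of 0.000760 from limma, which was 0.00607 without the filter on low expression. Uap1l1, a relative of the enzyme that makes UDP-N-acetylglucosamine, was higher, rising from a WT mean of 19.7 ± 0.982 TPM (SD, n = 3) to a KO mean of 35.1 ± 4.398 TPM (SD, n = 3) with an adjusted p of 0.00124 from limma, which was 0.00527 without WT 8, 0.00584 without KO 10 and 0.00649 without the filter. Of 16 tested genes for Golgi trimming, branching and capping, 0 were called by limma or by voom. Of all tested genes, 9.03% were lower and 1.64% higher by limma, and 12.2% and 4.34% by voom. Man2a2 and Manea (lower) and St3gal4 (higher) had a limma unadjusted p-value under 0.05, against 27.2% and 12.2% of all tested genes.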

How the data were processed

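RNA-seq of 3 WT and 3 KO MEF samples was analysed from 1 table. The study states alignment to mm10 with STAR, and the submitters' processing notes name Bowtie 0.12.2; the counting program is not given in the sources used here. The authors deposited TPM. The deposited fold changes and adjusted p-values hold the study's own comparison and were not used. Columns were matched to samples by title.

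WT and KO samples were compared with limma 3.58.1 (R 4.3.3) over the 14799 genes, of 26898, that reached a mean of 1 TPM in WT or in KO. Values were log2(TPM + 1), the variance prior followed the mean, no covariate was used, and p-values were adjusted by Benjamini-Hochberg over all genes tested. Each log2 fold change is a difference of such values. The pipeline was tested on simulated data in which genes rose and fell equally often. That test does not cover data in which falls outnumber rises, as they do here.

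Exon lengths and positions came from GENCODE M21 (all 26898 identifiers matched). TPM multiplied by exon length gave whole multiples of 1 step for 100% of values checked, at a tolerance of 0.05, and so recovered reads. These are reads assigned to genes, not library sizes.

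The 41 genes and all lists were chosen with earlier results of these data known. Of the 41 genes, those named with values in every sample were the genes called and those with an adjusted p-value under 0.05. The catalytic OST subunits and the 4 pairs of related genes were given in the same way. Dpagt1 and Prkcsh were added after their values were seen. Others, and all other pathway genes, are given by mean and SD, by fold change or as a percentage of WT. 1 other pathway gene is not reported here. Alternatives are described in the closing section.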

Additional observations from a re-analysis of the deposited data

How the results depend on the processing

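No paired analysis was possible because no replicate number occurs in both groups. Voom on recovered reads was chosen after seeing the data. In place of 10 lower and 0 higher among the 41 genes, no filter gave 2 lower, and median-of-ratios scaling and voom each gave 1 higher (Man1a). A stricter filter, on the mean over all 6 samples, of at least 10 TPM, replaced the filter by group. It gave 8 of 37 lower and 0 higher, against 941 lower and 289 higher of all 7747 genes then tested. Under it Dolk was called, and Alg6, Alg12, Alg13 and Man1a were not tested. Leaving out 1 sample gave 3 to 8 lower and 0 higher. For the other pathway genes (10 lower, 1 higher), no filter gave 6 and 0. The stricter filter gave 5 of 50 lower, a share below that of all tested genes (941 of 7747). Median-of-ratios scaling and removal of the 2 most abundant RNAs gave 2 higher, and voom gave 3 higher. Leaving out 1 sample gave 7 to 8 lower and 0 to 2 higher. For all tested genes (1337 lower, 242 higher), no filter gave 286 and 55, median-of-ratios scaling 473 higher, voom 642 higher, an adjusted p-value under 0.05 gave 2453 and 694, and leaving out 1 sample 527 to 778 lower and 62 to 207 higher. The causes were not tested.

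Median-of-ratios scaling and voom shifted the median of all tested genes upward by 0.0958 and 0.102, and the 6 genes whose log2 fold changes lay below 0 by less than this shift became positive: Nus1 (0.045 and 0.044), Gmppa (0.020 and 0.027), Alg1 (0.067 and 0.069), Alg2 (0.068 and 0.067), Stt3b (0.055 and 0.054) and Rpn1 (0.041 and 0.041). Without 1 sample, log2 fold changes spanned 0 for Nus1 (-0.122 to 0.0082), Gmppa (-0.173 to 0.037), Alg1 (-0.131 to 0.042), Alg2 (-0.102 to 0.041), Stt3a (-0.013 to 0.088), Stt3b (-0.122 to 0.026), Rpn1 (-0.115 to 0.0039), Dad1 (-0.056 to 0.031), Krtcap2 (-0.047 to 0.230) and Ganab (-0.046 to 0.082). The 10 genes called lower kept a negative sign in every setting that gave a value. The ratio of Pmm1 to Pmm2 stayed higher in KO samples without any 1 sample (log2 difference 1.03 to 1.18). With 3 samples a group, small changes of single genes could not be resolved: the 95% intervals of the 41 genes were 0.411 to 0.743 wide.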

Other observations

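Genes that read or take apart N-glycans were among those lower in KO MEFs. Of 13 lysosomal genes that degrade N-glycans or mark enzymes for the lysosome, 5 were lower by limma and 0 higher, against 9.03% of all tested genes lower. Nagpa, which uncovers the mannose-6-phosphate tag, fell to 26.3% of WT, from a WT mean of 16.3 ± 1.47 TPM (SD, n = 3) to a KO mean of 4.29 ± 0.4997 TPM (SD, n = 3). Manba, the lysosomal beta-mannosidase, fell to 28.8%, and Man2b2 and Ctbs to 45.8% and 45.8%. Fuca1, the lysosomal fucosidase, fell to 57.2%. The limma adjusted p-values of these 5 genes ranged from 0.000137 for Nagpa to 0.00442 for Ctbs. Ctbs missed the threshold whichever sample was left out, with adjusted p-values from 0.00952 without WT 8 to 0.0225 without WT 5, and without the filter on low expression (0.0201, limma). Aga, which releases the last sugar from asparagine, was at 67.7 ± 5.73 TPM (SD, n = 3) in WT and 95.8 ± 3.38 TPM (SD, n = 3) in KO MEFs and was not called (adjusted p = 0.00522, limma).

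Of 15 genes of lectin chaperones, reglucosylation and mannose trimming, 3 were lower by limma, against 9.03% of all tested genes. Os9, a lectin of ER-associated degradation, fell from a WT mean of 95.7 ± 3.99 TPM (SD, n = 3) to a KO mean of 45.2 ± 3.66 TPM (SD, n = 3), at an adjusted p of 0.000222 from limma. Edem2, which starts the mannose trimming that marks misfolded glycoproteins, fell to 42.6% of WT. Engase, a cytosolic enzyme that cleaves free glycans, fell from a WT mean of 1.65 ± 0.213 TPM (SD, n = 3) to a KO mean of 0.308 ± 0.0598 TPM (SD, n = 3), at an adjusted p of 0.00469 from limma. Engase missed the threshold whichever sample was left out, with adjusted p-values from 0.0119 without WT 8 to 0.0210 without WT 5, with a pseudocount of 0.1 (0.00686) and without the filter (0.00598, limma). The lectin chaperones Canx and Calr had log2 fold changes of 0.12 and -0.35 and were not called.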
